A study of Mus musculus with 2 samples.

Results

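The forkhead transcription factors, the Fox genes, were described in Flk-1-positive early mesodermal cells made from mouse embryonic stem cells in which AU019823 is gene-trapped (disrupted on both alleles), set against the same kind of cells from revertant stem cells, whose genotype the labels give as close to wild type. Flk-1 is the receptor encoded by Kdr. Stem cells of both genotypes were grown on OP9 stromal cells, a stromal line that supports blood differentiation, for 4 days by the treatment protocol and 4.5 by the sample descriptions, and Flk-1-positive cells were then sorted. RNA of 300000 gene-trapped and 350000 revertant cells was hybridised, with 1 array per group. The samples carry different codes that may be clones, so code and genotype cannot be told apart. Members are the genes whose symbol in the array's probe annotation is Fox, a letter from a to s, a number and at most 1 further letter, apart from 1 symbol the choice leaves out, each represented by its probe with the highest mean spot signal. This gave 30 genes of 16444 named genes. With 1 array per group there is no replicate error, no p-value is given, and each difference compares these 2 libraries.

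Forkhead factors bind DNA through a winged-helix domain that recognises short sites built around a TGTTTAC core. Some members open closed chromatin as pioneer factors, and the FOXO members carry insulin and growth factor signals to the nucleus, where kinases of the AKT family exclude them. In early mesoderm, members of the Foxc and Foxf groups are known for roles in somites, lateral plate and the first vessels, and forkhead sites joined to ETS sites are known features of endothelial enhancers.

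No forkhead gene differed by 2-fold or more between the arrays in the main setting. Of the 30 genes, 25 (83.3%) were above background on both arrays, beside 83.6% of the 16444 named genes. Another 2 were above it on neither array, 1 on the gene-trapped array only and 2 on the revertant array only. Over all named genes these 3 counts were 1943, 268 and 480. The share above background is thus near that of all named genes and is no result about the family. A probe was called above background where its spot median exceeded the mean of the blank spots by more than 2 SD, which is 22.3 intensity units on the gene-trapped array and 24.99 on the revertant array. Of the 25, 0 passed 2-fold upward and 0 passed it downward in gene-trapped cells, beside 0.334% and 1.08% of the 13753 named genes with both signals above background. A count of 0 among 25 genes therefore lies near the background share and is no result about the family. Their log2 differences, gene-trapped minus revertant, ran from -0.10 to 0.38 with a median of 0.031, against a median of 0.0079 over all named genes. Of the 25, 18 lay above 0 and 7 below, beside 7334 above and 6407 below of the 13753 named genes.

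The scale limits what such a difference can show. Normalized values include an offset of 50, which pulls differences of dim probes towards 0, and 22 of the 25 forkhead genes lay below the median brightness of named genes. Differences are therefore also given from the authors' deposited table, which has no such offset and in which small signals near the blank level give wide ratios. The spots of the 2 kinds of positive control had SDs of the log2 ratio of 0.107 and 0.0988, with 24 spots each, and 22 of the 25 forkhead differences were smaller than 0.107. Those control spots are far brighter than the forkhead spots, so this SD is a technical spread at high signal. All 25 differences lay within the central 95% of named genes of like brightness, a range computed in 10 brightness groups. In the 3 dimmest groups, which hold 15 of the 25, the SD over all named genes was 0.034, 0.063 and 0.101. Differences below 0.107 are thus common to named genes there, and their number is no result about the family. The whole gene-trapped array was dimmer, with a median probe signal of 38.6 against 47.5. Before normalization 29 of 30 forkhead spots had a lower spot median there. The share of all named genes with a lower spot median was not counted, so that number is no result about the family.

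**Figure D1:**
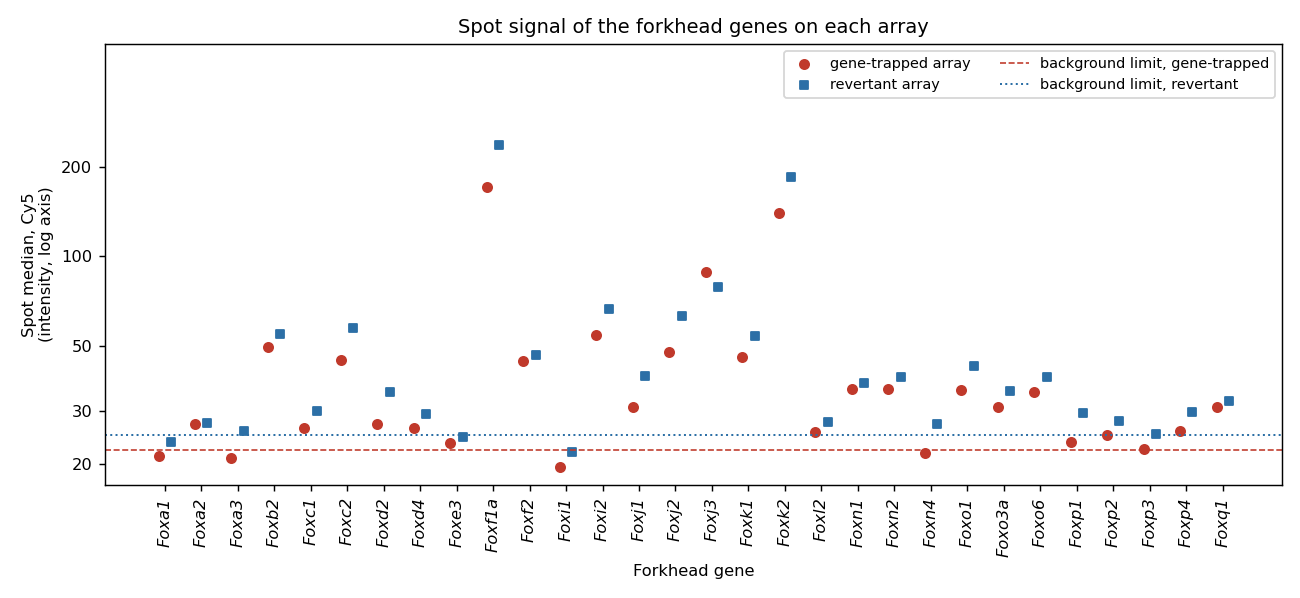
Cy5 spot median in intensity units (log axis) of each of the 30 forkhead genes, with circles for the gene-trapped array and squares for the revertant array, and each array's background limit as a line. Foxj3 is the 1 gene with the higher spot median on the gene-trapped array, 88.7 against 78.95, and many genes lie close to the limits of 22.3 and 24.99.

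The forkhead genes with promoter windows in RefSeq are shown first by their sequence. A RefSeq table of build GRCm38.p6 held windows from 250 bases before to 50 after the start for 22 of the 30 genes, 27 windows in all. Their median number of CG dinucleotides was 22, against 7 over 32851 windows of the same length, and their median GC content was 63.0% against 52.7%. This is not particular to forkhead genes. Of the lists described below, FOXO targets and FOXM1 targets each had a median of 24 CG, FOX:ETS endothelial genes 8.5 and Foxa-associated genes 6. The promoters of Foxj3 and Foxk2 are printed, 5′ to 3′ with CG in capitals. They were chosen because in the main setting Foxj3 had the highest difference in the family and Foxk2 one near 0, while both are CG-dense. Foxj3 lies at chr4:119539411-119539710 on the plus strand and holds 42 CG, and Foxk2 at chr11:121259737-121260036 on the plus strand with 59.
Foxj3: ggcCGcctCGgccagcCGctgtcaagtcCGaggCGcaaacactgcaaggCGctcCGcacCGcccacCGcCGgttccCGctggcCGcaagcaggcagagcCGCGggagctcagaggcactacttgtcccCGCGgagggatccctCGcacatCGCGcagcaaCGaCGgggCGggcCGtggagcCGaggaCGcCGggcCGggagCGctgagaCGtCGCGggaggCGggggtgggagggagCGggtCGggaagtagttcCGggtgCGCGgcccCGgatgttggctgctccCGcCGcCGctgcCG
Foxk2: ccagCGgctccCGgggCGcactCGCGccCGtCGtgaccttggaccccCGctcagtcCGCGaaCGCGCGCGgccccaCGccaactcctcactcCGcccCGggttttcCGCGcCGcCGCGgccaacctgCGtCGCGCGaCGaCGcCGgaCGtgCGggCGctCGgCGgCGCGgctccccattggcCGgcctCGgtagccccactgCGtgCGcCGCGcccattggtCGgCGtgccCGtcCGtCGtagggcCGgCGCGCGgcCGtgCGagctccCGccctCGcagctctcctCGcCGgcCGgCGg
The 5 windows of genes not above background on both arrays held 6 to 26 CG with a median of 22, and the 22 windows of the others 5 to 59 with a median of 24.5, so the ranges overlapped. The forkhead core TGTTTAC, read on both strands, was in 1 of the 27 windows (3.70%), that of Foxa1, against 3.65% of all windows. These are matches of letters and do not show a site in use.

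Foxf1a and Foxf2, mesodermal factors of lateral plate, gut and vessel-forming mesenchyme, differed little. The probe of Foxf1a, named Foxf1 in RefSeq and needed in mice for extraembryonic mesoderm, had a spot median of 171 on the gene-trapped array and 236 on the revertant array. Its normalized log2 signals were 7.82 and 7.92, a difference of -0.10. In the authors' table its values were 129 in gene-trapped and 141 in revertant cells, 1.09-fold lower. The local background around this spot was 160 in gene-trapped and 199 in revertant cells, close to the spot's own signal, and with it subtracted the difference was -0.32. It is the lowest of the 25 differences in the main setting, yet the central range at its brightness reaches down to -0.99. Foxf2 had spot medians of 44.4 in gene-trapped and 46.45 in revertant cells, with a log2 difference of 0.14, and 20.7 against 15.8 in the authors' table (1.31-fold higher). The 2 Foxf genes thus leaned in opposite directions, each by less than the range of genes of like brightness.

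Foxc1 and Foxc2, which act together in somites and vessels, showed differences near 0. Foxc2, at 44.6 in gene-trapped and 57.4 in revertant cells, had a log2 difference of -0.038, and 20.96 against 23.01 in the authors' table (1.098-fold lower). Foxc1 was dim on both arrays, at 26.3 in gene-trapped and 30.02 in revertant cells, with a difference of 0.016. Foxq1, Foxf2 and Foxc1 are consecutive protein-coding genes on chromosome 13, and their differences were 0.091, 0.14 and 0.016. The probe of Foxq1, a gene of hair and stomach epithelium, read 31.1 in gene-trapped and 32.6 in revertant cells. All 3 lay above 0 but none reached the edge of its brightness range. Foxd2, a factor of kidney and craniofacial mesenchyme, had spot medians of 27.1 in gene-trapped and 34.8 in revertant cells, a difference of -0.058.

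The Foxa genes, pioneer factors of endoderm, node and liver, were at or near the background. Foxa1 lay below the limit on both arrays, at 21.2 in gene-trapped and 23.7 in revertant cells. Foxa3 passed on the revertant array only, with 20.9 in gene-trapped and 25.7 in revertant cells, and its bound in gene-trapped cells, at least 1.01-fold lower, carries no size. Foxa2 passed on both arrays at 27.2 in gene-trapped and 27.4 in revertant cells, a log2 difference of 0.096. The authors' table gave 6.06 in gene-trapped and 3.25 in revertant cells for it, 1.87-fold higher. Of the other genes in a list of endoderm and axial genes expressed with Foxa2, 8 of the 12 with a probe were above background on both arrays, with a median difference of -0.0017 and 0 at least 2-fold apart. Gata6 had 0.26, Gata4 0.21, Sox17 -0.14 and Nog 0.050, whereas Ttr, Afp, Apoa1 and Cer1, which mark visceral or definitive endoderm, were below the limit on both arrays.

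Of the FOXO genes, the growth factor-regulated members, 3 are listed under a Foxo symbol, and each of these differed by less than 0.06 on the log2 scale. Foxo4, listed under an older name, had -0.23, and 1.66-fold lower in the authors' table. Foxo1 had spot medians of 35.3 in gene-trapped and 42.7 in revertant cells, with a log2 difference of 0.0064. Foxo3a, named Foxo3 in RefSeq, had 31.0 in gene-trapped and 35.0 in revertant cells, with 0.040. Foxo6, best known from brain, had 34.8 in gene-trapped and 39.2 in revertant cells, with 0.058. The authors' table put all 3 within 1.14-fold.

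Foxj3, studied in mice in muscle fibres and spermatogenesis, had the highest difference of the family. Its spot median was 88.7 on the gene-trapped array and 78.95 on the revertant array, and its normalized log2 signals were 7.05 and 6.67. The difference of 0.38 is 1.30-fold, and in the authors' table the values were 58.6 in gene-trapped and 37.2 in revertant cells (1.58-fold higher). The central range of genes of like brightness runs from -0.62 to 0.51, so the value lay inside it. Like other members such as Foxb2 and Foxq1, it lay above 0 throughout the 11 settings run, from 0.16 to 0.66. Its relative Foxj2 had 47.5 in gene-trapped and 62.9 in revertant cells with a difference of -0.057. Foxj1, the regulator of motile cilia, had 31.1 in gene-trapped and 39.5 in revertant cells with -0.043. Both lay on the other side of 0 from Foxj3.

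Foxk2 and Foxk1, broadly expressed factors that repress autophagy genes, differed little at their chosen probes in the main setting. Foxk2 had spot medians of 140 in gene-trapped and 185 in revertant cells, a log2 difference of -0.034, and 102 against 107 in the authors' table. Under median scaling Foxk2 had -0.18, and with the local background subtracted -0.26. Foxk1 is the 1 member with 2 probes, and they disagreed. The brighter, M300012266, had 45.7 in gene-trapped and 54.0 in revertant cells with 0.041, and the other, M300006743, had 34.4 in gene-trapped and 52.7 in revertant cells with -0.18. In the authors' table the second probe was 1.63-fold lower and the first 1.06-fold higher. The direction for Foxk1 therefore depends on the probe.

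**Figure D2:**
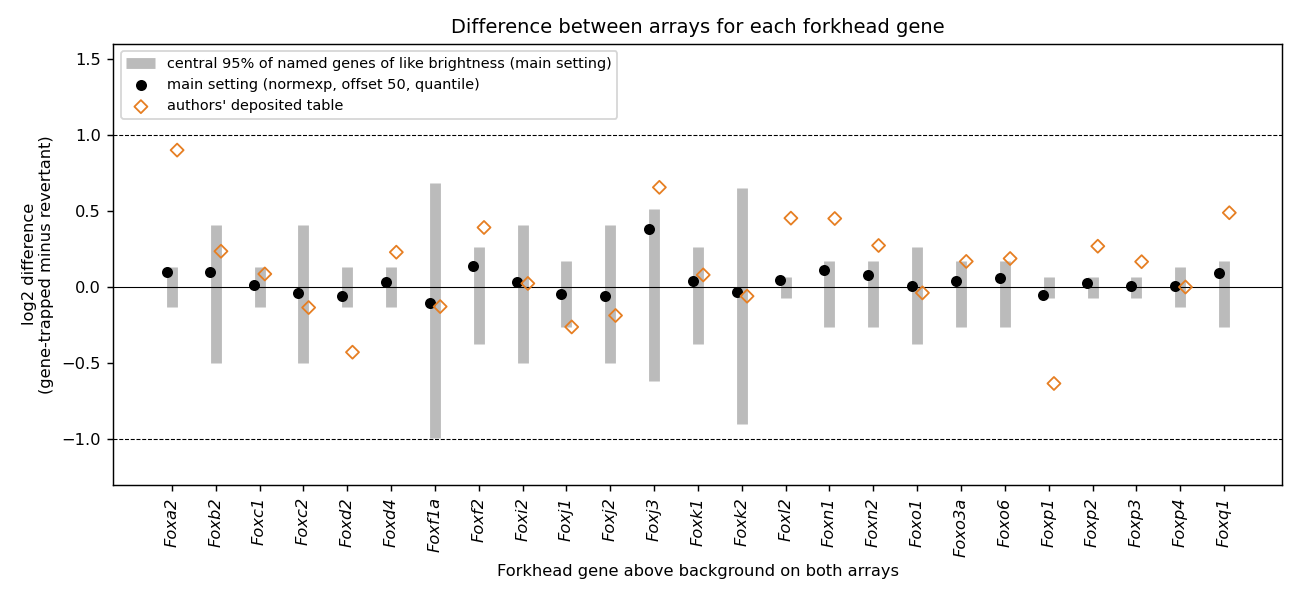
Log2 difference (gene-trapped minus revertant) of the 25 forkhead genes above background on both arrays, as filled circles in the main setting and open diamonds in the authors' deposited table, with grey bars for the central 95% of named genes of like brightness and dashed lines at 2-fold. Every circle lies within its bar, from -0.10 for Foxf1a to 0.38 for Foxj3, and the diamonds of dim genes such as Foxa2 and Foxp1 lie farther from 0 than their circles.

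The Foxp genes, which repress transcription in lung, brain and lymphocytes, were all near the limit. Foxp1 had 23.7 in gene-trapped and 29.7 in revertant cells, with a log2 difference of -0.053, and was 1.55-fold lower in the authors' table (3.08 in gene-trapped and 4.78 in revertant cells). Foxp3, the regulator of regulatory T cells, had 22.4 in gene-trapped and 25.1 in revertant cells, just above both limits. Foxp2 and Foxp4 had differences of 0.028 and 0.0042. Such signals show at most that a probe stood slightly over the blank spots.

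Most of the remaining members are tissue-restricted in the mouse, and most were dim here. Foxn1, needed for thymic epithelium, had 35.7 in gene-trapped and 37.3 in revertant cells with a difference of 0.11, and Foxn2 had 35.7 in gene-trapped and 39.2 in revertant cells with 0.079. Foxb2 had 49.3 in gene-trapped and 54.7 in revertant cells with 0.10, and Foxi2 had 54.4 in gene-trapped and 66.2 in revertant cells with 0.032. Foxd4 had 0.031 and Foxl2, a factor of the ovary, 0.045. These 6 genes all lay above 0 in the main setting, by 0.11 at most, where the offset shrinks differences of dim probes. In the authors' table Foxl2 and Foxn1 were each 1.37-fold higher. There Foxn2 was 1.21-fold, Foxb2 1.18-fold, Foxd4 1.17-fold and Foxi2 1.02-fold higher. Foxi1, of the inner ear and kidney, was below the limit on both arrays at 19.5 in gene-trapped and 21.9 in revertant cells.

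Foxe3 and Foxn4 were above background on 1 array each, and were the members past 2-fold in the authors' deposited table. Foxe3, of the lens, had 23.4 in gene-trapped and 24.6 in revertant cells and passed on the gene-trapped array only. Foxn4, of the retina, had 21.8 in gene-trapped and 27.1 in revertant cells and passed on the revertant array only. Their bounds were at least 1.03-fold higher for Foxe3 and at least 1.03-fold lower for Foxn4 in gene-trapped cells. In the authors' table Foxe3 was 2.86 in gene-trapped and 1.43 in revertant cells (2.003-fold higher) and Foxn4 1.45 in gene-trapped and 3.08 in revertant cells (2.12-fold lower). That is 1 gene each way among 27 with a value in both columns, beside 2.01% higher and 4.02% lower of 14203 named genes. At 1.5-fold the same table had 3 forkhead genes higher (Foxa2, Foxe3 and Foxj3) and 2 lower (Foxn4 and Foxp1), beside 8.82% and 10.9% of all named genes.

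Genes that act with or under the forkhead factors were read from 6 lists. The FOXO target list had 26 members above background on both arrays, with a median difference of -0.0079, 12 above 0 and 0 at least 2-fold apart. Igf1r, the insulin-like growth factor receptor, had spot medians of 101 in gene-trapped and 284 in revertant cells, a log2 difference of -0.95. Cdkn1b, the cell cycle inhibitor p27, had 88.1 in gene-trapped and 199 in revertant cells, with -0.65. Trib1, a pseudokinase, had 135 in gene-trapped and 107 in revertant cells, with 0.55, and Pik3ip1, listed as 1500004A08Rik, had -0.47. The members that stood out thus lay on both sides of 0. In the authors' table Igf1r was 2.5003-fold lower and Cdkn1b 2.001-fold, and Igf1r also passed 2-fold under median scaling (-1.10), with an offset of 16 (-1.15) and without background correction (-1.13).

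In the list of FOXO upstream regulators, 19 of 22 measured members lay above 0, beside 7334 of the 13753 named genes. The list's median was 0.14, with 0 at least 2-fold apart. The medians of the 10 brightness groups of named genes ran from 0.0010 to 0.061, the latter in the brightest group. The list's members are spread over dim and bright groups. Skp2, a ubiquitin ligase subunit that targets FOXO1, had 937 in gene-trapped and 644 in revertant cells, a log2 difference of 0.76. Akt1 had 712 in gene-trapped and 530 in revertant cells, with 0.65, Akt2 had 0.33, and Pdpk1, the kinase that activates AKT, had -0.43. With the local background subtracted Akt1 had 0.14. Under median scaling the list's median was 0.025, beside 0.014 over all named genes.

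Foxm1, which drives mitotic genes, was not analysed here, but 18 genes reported as its targets were measured, with a median of 0.068, 11 above 0 and 0 at least 2-fold apart. Cdc25b had 46.6 in gene-trapped and 122 in revertant cells, a log2 difference of -0.73. The centromere genes Cenpe and Cenpf had -0.62 and -0.55, and Birc5, encoding survivin, had 0.52. The median of this list was -0.050 under median scaling, so it has no settled direction. Cdc25b was 2.89-fold lower in the authors' table, the 1 member past 2-fold there, and passed it with an offset of 16 (-1.08) and without background correction (-1.04). Birc5 changed sign, to -0.33, with the local background subtracted.

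Promoters of these targets differ in the motifs they hold, and an example of each list is printed with the motif in capitals. Txnip, an inhibitor of glucose uptake on the FOXO target list with a log2 difference of 0.41, lies at chr3:96557707-96558006 on the plus strand and holds GTAAACA, the reverse complement of the forkhead core. Cenpf lies at chr1:189688037-189688336 on the minus strand and holds TTTGAA, the cell cycle homology element through which FOXM1 is known to be brought to G2 and M phase genes with other proteins.
Txnip: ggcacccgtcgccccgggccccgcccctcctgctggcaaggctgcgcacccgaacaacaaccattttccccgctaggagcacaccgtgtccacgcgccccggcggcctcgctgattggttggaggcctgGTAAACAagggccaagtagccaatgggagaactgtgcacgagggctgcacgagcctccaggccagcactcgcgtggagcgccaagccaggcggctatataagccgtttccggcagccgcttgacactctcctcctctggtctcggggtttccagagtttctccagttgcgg
Cenpf: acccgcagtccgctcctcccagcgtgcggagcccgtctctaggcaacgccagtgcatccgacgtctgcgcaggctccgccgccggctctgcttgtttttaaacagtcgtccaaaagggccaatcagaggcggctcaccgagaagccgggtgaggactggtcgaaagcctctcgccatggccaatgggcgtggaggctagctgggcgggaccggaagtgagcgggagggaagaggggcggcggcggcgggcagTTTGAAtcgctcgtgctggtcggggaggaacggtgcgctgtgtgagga
The forkhead core was in 5 of 30 windows of FOXO targets (16.7%), against 3.65% of all windows. TTTGAA, on both strands, was in 12 of 17 windows of FOXM1 targets (70.6%), against 17.9% of all windows, and CCAAT in 16 of 17 (94.1%), against 37.4%. No forkhead core was in the 17 windows of FOXM1 targets or in the 10 of the endothelial list below. The targets in each list were chosen for reported regulation, so these shares describe the lists and not the arrays.

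Endothelial genes with reported joint FOX and ETS enhancers were the one list of the 6 with members past 2-fold in the main setting. Of 7 members measured on both arrays, 2 passed 2-fold downward and 0 upward, beside 1.08% and 0.334% of all named genes, and the median was -0.65. Tek, the angiopoietin receptor, had spot medians of 42.9 in gene-trapped and 187 in revertant cells, a log2 difference of -1.31. Pecam1, an endothelial adhesion molecule, had 53.7 in gene-trapped and 215 in revertant cells, with -1.27. Of the others, Tal1 had -0.69, Kdr -0.65 and Tie1 -0.56. Tie1 passed 2-fold with an offset of 16 (-1.07), without background correction (-1.01) and in the authors' table (5.27-fold lower), and Kdr had -2.04 with the local background subtracted, where Pecam1 had -0.95. Notch4 and Flt4 had 0.040 and -0.024, so differences within the list ran from near 0 to past 2-fold. Cdh5, a junction cadherin, was above background on the revertant array only, at 22.2 in gene-trapped and 29.7 in revertant cells. By the authors' deposited table the list's median was -1.12 and 4 of 8 members passed 2-fold downward, among them Tek (5.55-fold lower) and Pecam1 (4.41-fold lower), beside 4.02% of 14203 named genes. These counts include Cdh5, and without it 3 of 7 passed, with a median of -0.86. Etv2, the ETS factor of early vessels, had 1.30, opposite in sign to Tek and Pecam1. The Foxc and Foxf genes, as given above, lay between -0.10 and 0.14. In bulk RNA, fewer cells of a type and less RNA per cell cannot be told apart.

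Several marker lists of other cell types also differed beside these endothelial genes. Of 12 stromal and fibroblast markers, 10 were above background on both arrays, with a median difference of -0.38, 7 below 0 and 3 above. Those past 2-fold downward were Col5a1 at -1.61, Col1a1 at -1.49 and Acta2 at -1.299, whereas Tagln had 0.25, Lum 0.055 and Thy1 0.023. Dcn and Fbln2 were below the limit on both arrays. The summed spot signal of the 12, before normalization, was 4667 in gene-trapped and 8568 in revertant cells, beside a median probe signal of 38.6 and 47.5. Of the early mesoderm markers, 10 of 10 were above background on both arrays, with 2 at least 2-fold higher, 0 lower and a median of 0.092. Mixl1 had 1.99, Etv2 1.30, T 0.76 and Mesp1 0.51, while Tal1 had -0.69, Kdr -0.65, Hand1 -0.44 and Gata2 -0.40. Of 7 measured pluripotent markers, 2 were at least 2-fold higher, Tdgf1 at 1.88 and Dppa5a at 1.21. Their median was 0.073, with 6 above 0 and 1 below, Klf4 at -0.36. Of 6 measured neuroectoderm markers 1 was at least 2-fold higher, Otx2 at 1.29, with 5 above 0 and 1 below, Tubb3 at -0.42. Endoderm and macrophage markers had medians of -0.0083 and 0.027, with 0 at least 2-fold apart. Over all named genes 0.334% were at least 2-fold higher and 1.08% lower in this main setting. In the authors' table, 5 of the 10 stromal markers passed 2-fold downward and 0 upward. There 3 of 10 early mesoderm, 2 of 7 pluripotent and 3 of 6 neuroectoderm markers passed it upward, and 0 downward. Of 7 endoderm markers 1 passed it downward and 0 upward, and of 4 macrophage markers 0 passed it. Over all named genes that table had 2.01% higher and 4.02% lower. The part of these marker lists in the endothelial values was not tested. The disrupted gene had a log2 difference of -0.39 at a probe whose place relative to the trap is unknown, so it does not check the labels.

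Genes reported to depend on Foxc factors showed no common direction. Of 10 measured, 4 lay above 0, the median was -0.013 and 0 were at least 2-fold apart. Mesp1, of nascent mesoderm, had 550 in gene-trapped and 455 in revertant cells with a log2 difference of 0.51. Hey2, a Notch target of arteries, had 31.7 in gene-trapped and 53.9 in revertant cells with -0.27, and Efnb2 and Mesp2 had 0.24 and 0.19, Mesp2 turning to -0.028 with the local background subtracted. In the authors' table Hey2 was 2.08-fold lower.

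**Figure D3:**
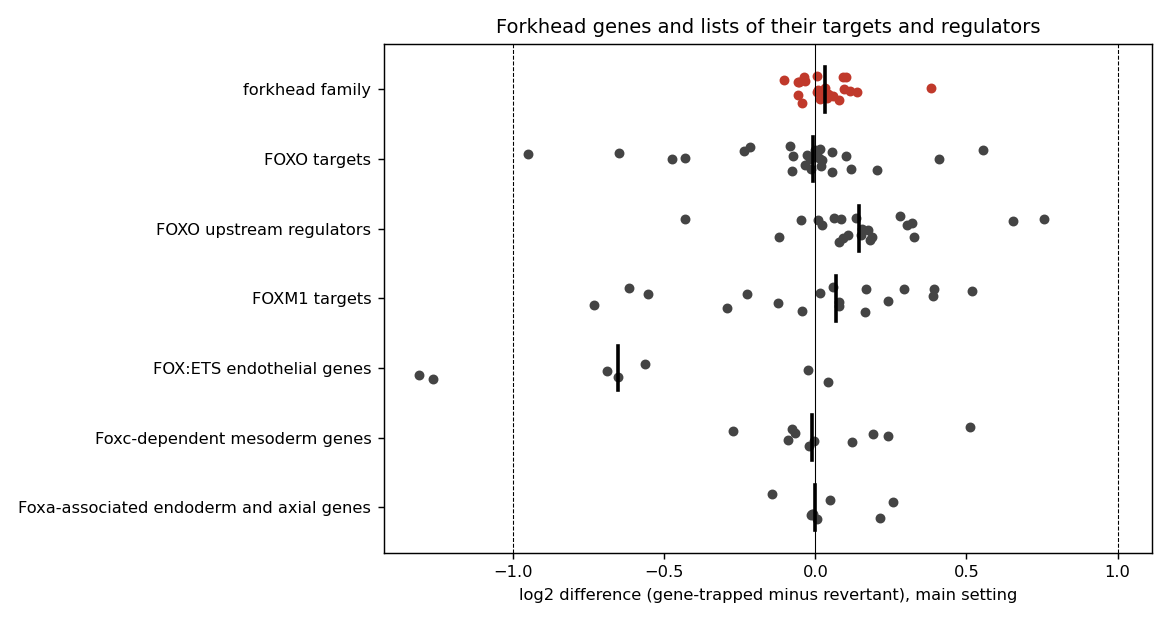
Log2 difference (gene-trapped minus revertant, main setting) of the forkhead genes and of 6 lists of their targets, regulators and associated genes, 1 point per gene above background on both arrays, with the median as a bar and dashed lines at 2-fold. The forkhead genes lie between -0.10 and 0.38, and points beyond 2-fold appear in the FOX:ETS list alone among these, for Tek and Pecam1.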

How the data were processed

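Per the labels' protocols, total RNA was amplified with an amino allyl kit, coupled to Cy5 and hybridised to TORAY arrays. Per the file headers, the deposited spot intensity is a Cy5 median combined over 3 scanner gains by a least-squares line. A further deposited table holds linear intensity by the authors with medians of 25 and 24.998, which by its values is spot signal less about the blank mean, divided by a constant per array. Its direction and scale follow the scanner values, and why some of its cells are empty is not known. Spot intensities were corrected with normexp (offset 50) in limma 3.58.1 under R 4.3.3, quantile-normalized between arrays and put on the log2 scale, without control spots and spots with a quality flag; tables used Python 3.11.15 and pandas 2.3.3. These steps were tested on simulated data, in which only probes well above the blank level were changed. Most forkhead probes were dimmer than those, so that test does not show how well their differences are recovered. Of the probes, 16631 have 1 symbol in the platform annotation, and all 30 forkhead symbols matched a RefSeq gene or synonym. A gene was counted at a fixed size of 2-fold, in place of a test. The text names every forkhead gene, and of each list the members past 2-fold or the 4 with the largest absolute difference; Ttr, Afp, Apoa1 and Cer1, Txnip, Tie1, Notch4, Flt4, Cdh5, Etv2 and the markers of other cell types were named after their values were seen. The members and lists were chosen with earlier results of these data known. Scaling, background correction, filter, probe choice and source were varied. With 1 array per group, the number of arrays limits every difference.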

Additional observations from a re-analysis of the deposited data

Results flagged for a closer look

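A pair of forkhead genes stand in the annotation under older names and so fall outside the choice of members, and both carried signal. Foxn3, listed as Ches1, had spot medians of 105 in gene-trapped and 196 in revertant cells at probe M400002923, with a log2 difference of -0.42 (1.57-fold lower in the authors' table). Its second probe, M200015881, had 73.0 in gene-trapped and 124 in revertant cells, with -0.29. In the main setting the Foxn3 difference is lower than that of any of the 25 members above background on both arrays. The central range of named genes at its brightness runs from -0.90 to 0.65, so it lay inside. Most members are dimmer, where the offset shrinks differences, and in the authors' table Foxp1 was close to Foxn3 at 1.55-fold lower. Foxo4, listed as Mllt7, had 38.4 in gene-trapped and 61.8 in revertant cells, with -0.23 (1.66-fold lower in the authors' table). Both were singled out once their values were known, and adding them leaves the family median at 0.028.

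The column of local background around each spot was not used in the main setting, yet held signal at the forkhead spots. Its median over the 30 forkhead spots was 20.8 on the gene-trapped array and 21.1 on the revertant array, against 15.6 and 14.2 at blank spots. The local background at spots of other named genes was not summarised, so nothing here is shown to be particular to forkhead spots. The highest values, 160 on the gene-trapped array and 199 on the revertant array, were at Foxf1a.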

How the results depend on the processing

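No paired analysis was possible because there is only 1 array per group, and no replicate could be left out. Subtraction of the local background and the addition of older names were chosen after seeing the data. The forkhead median was 0.22 under 75th percentile scaling, which moves the median of all named genes to 0.15 by its construction, and 0.17 in the authors' table, where that of all genes was 0.016. With the local background subtracted it was 0.0025. By the authors' values 1 forkhead gene passed 2-fold upward and 1 downward, and in each of the other 9 alternatives these counts stayed at 0. Members above background numbered from 20 (5 SD) to 26 (95th percentile of blank and negative control spots). Foxj3 stayed above 0 and Foxf1a and Foxk2 below 0 in every setting run. Other members also stayed above 0 throughout, among them Foxb2 (0.055 to 0.24) and Foxq1 (0.067 to 0.49). Taken relative to each setting's median over all named genes, the sign changed for 5 of the 25 members above background on both arrays under 75th percentile and under median scaling and for 8 with the local background subtracted, and for 2 or fewer in the other settings. Among the lists, upstream regulators had a median of 0.025 and FOXM1 targets -0.050 under median scaling, and Foxc-dependent genes had 0.13 and Foxa-associated genes 0.21 under 75th percentile scaling. The FOX:ETS list had -0.80 with offset 16, -0.79 without background correction, -1.12 in the authors' table and -0.51 with the local background subtracted. A smaller offset widens differences by construction; for the other changes the cause was not tested. Signal over background limits the dim members most.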
